A study of Mus musculus with 12 samples.

Results

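The genes described here fold, modify, move or discard proteins in the endoplasmic reticulum, or sense and answer the load of unfolded protein there. The list named 34 genes, and a member was measured when the array held a probe set with that single gene symbol, of which the brightest was used. This gave 33 members among 22180 genes. Pdia4, a disulfide isomerase, had only a probe set shared with other symbols and was not analysed here. All 33 passed the filter on low values, which kept 20135 genes.

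RNA came from sorted prostate epithelial cells from male mice that were wild-type and hormone-naïve. Sorting kept lineage-negative cells. The gates were luminal (Sca1-low, CD49f-low), Sca1-high (CD49f-positive) and basal (Sca1-intermediate, CD49f-positive), and each was divided into cells with and without the surface protein LY6D. The 6 groups held 2 libraries each, 12 in all. Luminal libraries came from mice 4 and 5, Sca1-high libraries from mice 1 and 5, and basal libraries from mice 3 and 5. The labels give no age or strain, and do not name the lineage markers. Values are log2 signals. A gate value is the mean with its SD over 4 libraries (n = 4) from 2 mice, and differences are log2 differences ± moderated SE from limma. The fit takes all libraries as separate although some come from the same animal, so its errors do not measure the spread between mice.

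Proteins bound for secretion enter the endoplasmic reticulum through the SEC61 channel, fold with the help of the HSP70 chaperone BiP (Hspa5), the lectins calnexin and calreticulin and the disulfide isomerases, and leave for the Golgi. Those that fail to fold are pulled back to the cytosol and degraded. When unfolded protein builds up, the membrane sensors IRE1 (Ern1), PERK (Eif2ak3) and ATF6 drive the unfolded protein response, in which the factors XBP1, ATF4 and cleaved ATF6 switch on many of these same genes. Prostate luminal cells are secretory and release large amounts of protein into the gland lumen.

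The promoters of these genes are known for the ER stress element, the joint binding site of NF-Y and ATF6 or XBP1. Windows of 250 bases before to 50 after the start were given by RefSeq (GRCm38.p6) for 28 of the 33 members. An exact ER stress element (CCAAT, then 9 bases of any kind, then CCACG, searched on both strands) stood in the windows of 9 of these 28 genes (32.1%), against 37 of all 27025 genes with a window (0.137%), and in 39 of all 32851 windows (0.119%). The elements are printed to show how the shared ends flank a spacer that differs from gene to gene. Each is written in its own 5′ to 3′ direction with the shared ends in capitals:
Calr, bases 162 to 144 before the start, opposite strand: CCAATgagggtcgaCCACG
Canx, bases 145 to 127 before the start, same strand: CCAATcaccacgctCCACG
Creld2, bases 126 to 108 before the start, opposite strand: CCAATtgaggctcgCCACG
Derl3, bases 156 to 138 before the start, opposite strand: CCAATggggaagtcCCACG
Dnajc3, bases 105 to 87 before the start, same strand: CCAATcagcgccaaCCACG
Hsp90b1, bases 212 to 194 before the start, same strand: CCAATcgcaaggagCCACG
Hsp90b1, bases 107 to 89 before the start, opposite strand: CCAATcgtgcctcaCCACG
Hspa5, bases 65 to 47 before the start, same strand: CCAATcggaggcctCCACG
Pdia6, bases 98 to 80 before the start, same strand: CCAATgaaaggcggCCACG
Syvn1, bases 44 to 26 before the start, same strand: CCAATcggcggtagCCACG

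The shorter ER stress element II (ATTGG and CCACG with 1 base of any kind between them) stood in the windows of Herpud1 and Dnajb11, and in 0.0365% of all windows. Both elements end in the same bases, CCACG. The unfolded protein response element TGACGTGG (0.676% of all windows) and the amino acid response elements TGATGCAAT (0.192%) and TGATGCAAA (0.271%) stood in the window of 0 members. Upstream sequences are shown for the 3 element-holding members with the smallest p in a gate comparison, 250 bases up to the start, with the ends of the element in capitals:
Pdia6, chr12:17266339-17266588, + strand: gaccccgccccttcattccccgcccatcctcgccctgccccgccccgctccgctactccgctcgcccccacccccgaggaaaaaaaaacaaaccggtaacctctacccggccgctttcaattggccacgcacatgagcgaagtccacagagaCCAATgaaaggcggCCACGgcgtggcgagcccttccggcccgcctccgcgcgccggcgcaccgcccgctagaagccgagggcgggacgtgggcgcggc
Syvn1, chr19:6046326-6046575, + strand: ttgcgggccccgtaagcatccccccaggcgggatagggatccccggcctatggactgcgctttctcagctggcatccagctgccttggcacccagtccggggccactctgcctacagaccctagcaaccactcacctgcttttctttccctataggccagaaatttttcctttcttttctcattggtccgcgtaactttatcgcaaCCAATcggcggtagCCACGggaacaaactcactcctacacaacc
Creld2, chr15:88819396-88819645, + strand: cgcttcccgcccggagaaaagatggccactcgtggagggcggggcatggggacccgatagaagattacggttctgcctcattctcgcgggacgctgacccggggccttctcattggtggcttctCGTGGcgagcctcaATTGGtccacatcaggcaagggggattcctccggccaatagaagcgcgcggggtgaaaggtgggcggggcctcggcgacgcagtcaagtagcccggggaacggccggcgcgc

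In the Creld2 sequence the element lies on the opposite strand, so that its ends read as the reverse complement. Members that hold the element lay on the lower side in both gate comparisons with luminal cells: 9 of 9 for basal cells, with differences between -2.12 and -0.31 and a median of -1.06, and 9 of 9 for Sca1-high cells, between -2.06 and -0.73 with a median of -1.13. Of the 19 members with a window but no element, 17 and 16 were on the lower side, with medians of -0.62 and -0.84. A match is a description of these letters only, and the difference between these sets was not tested.

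Most members had a higher mean signal in luminal cells than in the other gates. In basal cells 29 of 33 lay on the lower side of luminal cells, with a median difference of -0.70, against 54.2% of all genes and a median of -0.03. In Sca1-high cells 30 of 33 did, with a median of -0.87, against 40.2% of all genes and a median of 0.07. Single genes seldom passed the test. With limma and Benjamini-Hochberg adjustment over all genes, 0 members passed an adjusted p of 0.05 for basal against luminal cells (0.417% of all genes did), where 17 members were lower and 0 higher at an unadjusted p under 0.05 (4.58% and 4.86% of all genes). For Sca1-high against luminal cells 1 member passed, Serp1, which was lower (0.139% of all genes passed, 0.0993% as lower and 0.0397% as higher), and 22 members were lower and 0 higher at an unadjusted p under 0.05 (4.38% and 4.03%). The same 4 luminal libraries serve both comparisons.

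**Figure D1:**
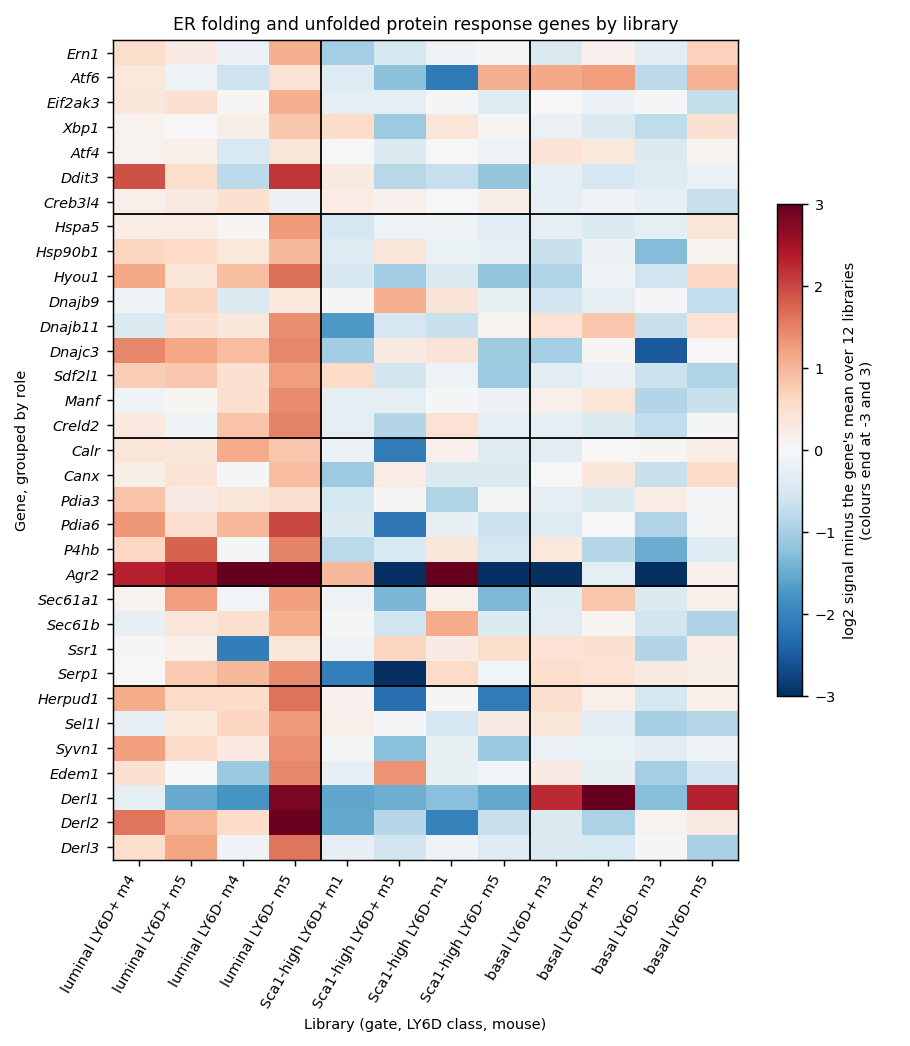
Log2 signal of 33 genes (rows, grouped by role: sensors and factors, chaperones, lectins and isomerases, translocation, degradation) in 12 libraries (columns), minus each gene's mean over the libraries. Colours end at -3 and 3. The luminal LY6D- library of mouse 5 is above the mean for 32 of 33 genes.

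The libraries themselves differed within gates. The median member lay 1.28 above its own mean over all libraries in luminal LY6D- cells of mouse 5, and 0.32 to 0.41 above it in the other 3 luminal libraries. In the Sca1-high libraries it lay between -0.55 and -0.11 and in the basal libraries between -0.59 and 0.08. Luminal LY6D- cells of mouse 5 held the highest value of 23 of the 33 members, and Sca1-high LY6D+ cells of mouse 5 the lowest value of 9. Without that luminal library the median differences were -0.58 for basal and -0.70 for Sca1-high against luminal cells, and without both of these libraries -0.58 and -0.64, with 27 and 28 of 33 members on the lower side. Without both, the Sca1-high minus luminal differences of the members named below were -2.28 for Agr2, -1.15 for Herpud1, -1.37 for Pdia6 and -2.36 for Derl2, and the basal minus luminal difference of Derl2 was -1.17. The same luminal library had 17585 genes above the table's lower quartile, the smallest number of any library (17859 to 19061 elsewhere) and the highest signal for Ptprc, which encodes CD45, at 8.90. Over 12 lymphoid and 16 fibroblast and smooth muscle markers its mean levels were 5.65 and 6.32, against 3.79 to 4.43 and 5.39 to 5.67 in the other luminal libraries. Over 17 myeloid markers, Ptprc among them, its mean was 7.76 against 6.58 to 7.37. Single myeloid markers differed: Csf1r was also highest there, at 7.27, while Cd14 (9.23) and C1qa (5.43) were higher in luminal LY6D+ cells of mouse 5, at 10.09 and 6.39. Sca1-high LY6D+ cells of mouse 5 had the lowest signals of the keratins Krt8 and Krt18, at 6.48 and 5.30. These keratins did not separate luminal from basal cells, at 9.63 to 10.57 against 8.88 to 10.91 and 10.31 to 11.14 against 10.13 to 11.60. Other luminal markers did, such as Dpp4, at 4.66 to 6.16 against 2.99 to 3.53. Foxa1 separated them the other way, at 5.99 to 7.24 against 7.54 to 8.59. Of the 13 luminal markers, 8 lay on the lower and 5 on the higher side in basal cells, and 1 passed in limma, as lower (0.278% of all genes). The mean over 13 luminal markers was 5.75 in that Sca1-high library and 6.80 to 6.84 in the others of its gate. Prom1, of the same list, was highest there within the gate, at 5.00.

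Markers of other cell types moved with the gates. Over the 17 myeloid markers measured, the mean log2 level of a library lay between 6.58 and 7.76 in luminal, 4.64 and 6.09 in Sca1-high and 4.26 and 4.88 in basal cells, with 17 of 17 above the lower quartile (2.98) in every luminal library and 15 or more in the basal libraries. Over 9 seminal vesicle genes it lay between 11.25 and 11.62 in luminal, 6.62 and 9.72 in Sca1-high and 6.04 and 10.76 in basal cells, and over 16 prostate secretory genes between 8.82 and 9.43, 6.35 and 8.30, and 6.38 and 7.78. Over 15 endothelial markers it was 4.17 to 4.55, 5.59 to 7.17 and 4.29 to 6.61, highest in Sca1-high LY6D+ cells of mouse 5. The endothelial cadherin Cdh5 read 7.01 to 11.02 in the Sca1-high libraries, 10.80 in that one, and 9.33 and 9.78 in the basal LY6D- libraries, against 4.26 to 5.88 in the others. The 12 B and plasma cell markers did not separate the gates, at 4.13 to 4.61 in luminal, 4.31 to 4.66 in Sca1-high and 4.28 to 4.66 in basal cells. Luminal LY6D- cells of mouse 5 had the lowest of these plasma cell values, and their Jchain signal was 2.15. That marker list includes Derl3, itself a member, which was highest in the same library, at 6.92. The probe set of Trp63, a defining factor of basal cells, read 4.79 to 5.07 in the basal and 3.94 to 5.22 in the other gates. The basal keratin Krt14 read 10.19 to 11.69 in basal, 4.98 to 10.31 in luminal and 7.89 to 10.41 in Sca1-high cells. Its basal range thus overlapped both other gates. Over the 13 basal markers measured, however, every basal library mean lay above those of both other gates. These means were 6.50 to 7.38 in basal, 5.07 to 6.21 in luminal and 5.70 to 6.38 in Sca1-high cells. Against luminal cells, 12 of the 13 lay on the higher and 1 on the lower side in basal cells. The part of these markers in the results was not tested, and in sorted bulk RNA more cells of a type and more RNA per cell cannot be told apart.

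Among the chaperones of the HSP70 and HSP90 type and their partners, 9 of 9 members lay on the lower side in basal cells (median difference -0.999) and 8 of 9 in Sca1-high cells (-0.87). Dnajc3 encodes p58IPK, a BiP co-chaperone that also restrains PERK. Its signals were 10.65, 10.38, 10.14 and 10.65 in luminal cells (LY6D+ of mice 4 and 5, then LY6D- of mice 4 and 5). They were 8.17 and 9.47 in Sca1-high LY6D+ cells of mice 1 and 5, and 9.61 and 8.15 in LY6D- cells. Basal values were 8.19 and 9.24 in LY6D+ cells of mice 3 and 5, and 6.71 and 9.21 in LY6D- cells. Every luminal library lay above every other library, with differences of -2.12 ± 0.58 for basal (adjusted p = 0.227) and -1.61 ± 0.58 for Sca1-high cells (adjusted p = 0.504).

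Hyou1, a large HSP70-like protein that exchanges nucleotide on BiP, was between 6.66 and 7.94 in luminal, 5.13 and 5.86 in Sca1-high and 5.38 and 6.92 in basal cells. Sca1-high and luminal libraries did not overlap (-1.80 ± 0.36, adjusted p = 0.142). Basal LY6D- cells of mouse 5, at 6.92, reached into the luminal range, and the basal difference was -1.28 ± 0.36 (adjusted p = 0.255). Sdf2l1, a partner of the ER DnaJ proteins, read 6.75, 6.82, 6.49 and 7.26 in luminal cells, in the order used above. The basal values were 5.70 and 5.84 with LY6D and 5.38 and 5.11 without, all under the luminal range (-1.32 ± 0.32, adjusted p = 0.157, the smallest of any member in that comparison). Sca1-high values were 6.60 and 5.46 with LY6D and 5.87 and 4.93 without, and LY6D+ cells of mouse 1 lay inside the luminal range.

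The main chaperones BiP and GRP94 were also highest in luminal cells. Hspa5 (BiP) was 8.93 ± 0.57 in luminal, 8.20 ± 0.19 in Sca1-high and 8.34 ± 0.34 in basal cells, and luminal LY6D- cells of mouse 5, at 9.76, stood apart from the other luminal libraries at 8.51 to 8.72. Without it the Hspa5 differences were -0.28 for basal and -0.42 for Sca1-high cells, against -0.59 ± 0.28 and -0.73 ± 0.28 with all libraries. Hsp90b1 (GRP94) was 11.78 ± 0.27 in luminal, 11.03 ± 0.32 in Sca1-high and 10.63 ± 0.61 in basal cells. Basal and luminal libraries did not overlap for Hsp90b1, at 9.84 to 11.22 against 11.47 to 12.11 (-1.15 ± 0.33, adjusted p = 0.244). The secreted stress proteins Manf and Creld2 differed by -0.72 ± 0.22 and -0.999 ± 0.27 between basal and luminal cells, and the BiP co-chaperone Dnajb11 by -0.20 ± 0.41.

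Dnajb9 (ERdj4), which recruits BiP to IRE1, read 10.62, 11.39, 10.30 and 11.05 in luminal cells, 10.77, 11.81, 11.11 and 10.52 in Sca1-high cells and 10.15, 10.44, 10.68 and 9.99 in basal cells, in the order used above. It was the one chaperone on the higher side in Sca1-high cells, by 0.21 ± 0.33, and all gates overlapped. This sign turned without Sca1-high LY6D+ mouse 5 (-0.0494) and with mouse as a block (-0.0573).

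Disulfide isomerases and lectin chaperones were on the lower side for 6 of 6 members in both comparisons, with a median of -1.10 for basal cells and one of -1.30 for Sca1-high cells. Pdia6, an isomerase that also damps IRE1 and PERK signalling, read 7.83, 7.03, 7.53 and 8.54 in luminal cells, in the order used above. Sca1-high values were 6.13 and 4.39 with LY6D and 6.30 and 5.88 without, and basal values 6.14, 6.56, 5.62 and 6.48. No library of either gate reached the luminal range (-2.06 ± 0.42, adjusted p = 0.142, and -1.53 ± 0.42, adjusted p = 0.229). Without Sca1-high LY6D+ mouse 1 the Sca1-high difference of Pdia6 was -2.49 and passed (adjusted p = 0.0340, limma), as did that of Calr, at -1.76 (adjusted p = 0.0200, limma). In that fit 88 of all genes passed, against 28 with all libraries.

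P4hb, the classical disulfide isomerase, read 8.51, 9.65, 7.82 and 9.37 in luminal cells, 7.07, 7.43, 8.23 and 7.34 in Sca1-high cells and 8.20, 7.02, 6.39 and 7.48 in basal cells. Luminal LY6D- cells of mouse 4, at 7.82, overlapped the other gates (basal minus luminal -1.57 ± 0.46, adjusted p = 0.271). Pdia3, the isomerase that works with the lectins, had luminal values of 9.17 to 9.78, above all Sca1-high (8.03 to 8.97) and basal values (8.52 to 9.14), with differences of -0.86 ± 0.25 and -0.62 ± 0.25. Calr (calreticulin) read 10.11, 10.08, 10.85 and 10.54 in luminal, 9.58, 7.64, 9.87 and 9.38 in Sca1-high and 9.42, 9.73, 9.77 and 9.97 in basal cells, again without overlap with luminal cells. Sca1-high LY6D+ cells of mouse 5, at 7.64, were far below the rest, and without them the Sca1-high difference was -0.79 in place of -1.28 ± 0.37. Canx (calnexin) overlapped in all gates, at 9.96 ± 0.42, 9.16 ± 0.53 and 9.65 ± 0.54 in luminal, Sca1-high and basal cells.

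Agr2, an isomerase-like protein of mucus and secretory cells, had the widest span of any member, from 3.60 to 11.58. Luminal cells read 10.38, 10.60, 11.16 and 11.58. In the other gates the mice differed more than the LY6D classes: Sca1-high cells of mouse 1 stood at 9.04 (LY6D+) and 11.31 (LY6D-) and those of mouse 5 at 3.60 and 4.81, while basal cells of mouse 3 stood at 4.22 and 4.15 and those of mouse 5 at 7.80 and 8.22. The differences were -4.84 ± 1.66 for basal (adjusted p = 0.361) and -3.74 ± 1.66 for Sca1-high cells (adjusted p = 0.595). With mouse as a fixed block, where a gate comparison rests on mouse 5, they were -3.08 (adjusted p = 0.0277, limma) and -6.88 (adjusted p = 0.00338, limma). The seminal vesicle gene Svs1 was chosen after its values were seen. In basal cells it read 4.64 and 3.97 in mouse 3 and 9.92 and 7.78 in mouse 5. In Sca1-high cells it read 9.45 and 8.03 in mouse 1 and 3.79 and 7.96 in mouse 5. The mean over 9 seminal vesicle genes was 7.18 and 6.04 in basal cells of mouse 3 and 10.76 and 8.18 in mouse 5. In Sca1-high LY6D+ cells that mean was 9.72 in mouse 1 and 6.62 in mouse 5. In Sca1-high LY6D- cells it was higher in mouse 5, at 9.27 against 8.57, the other way from Agr2.

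**Figure D2:**
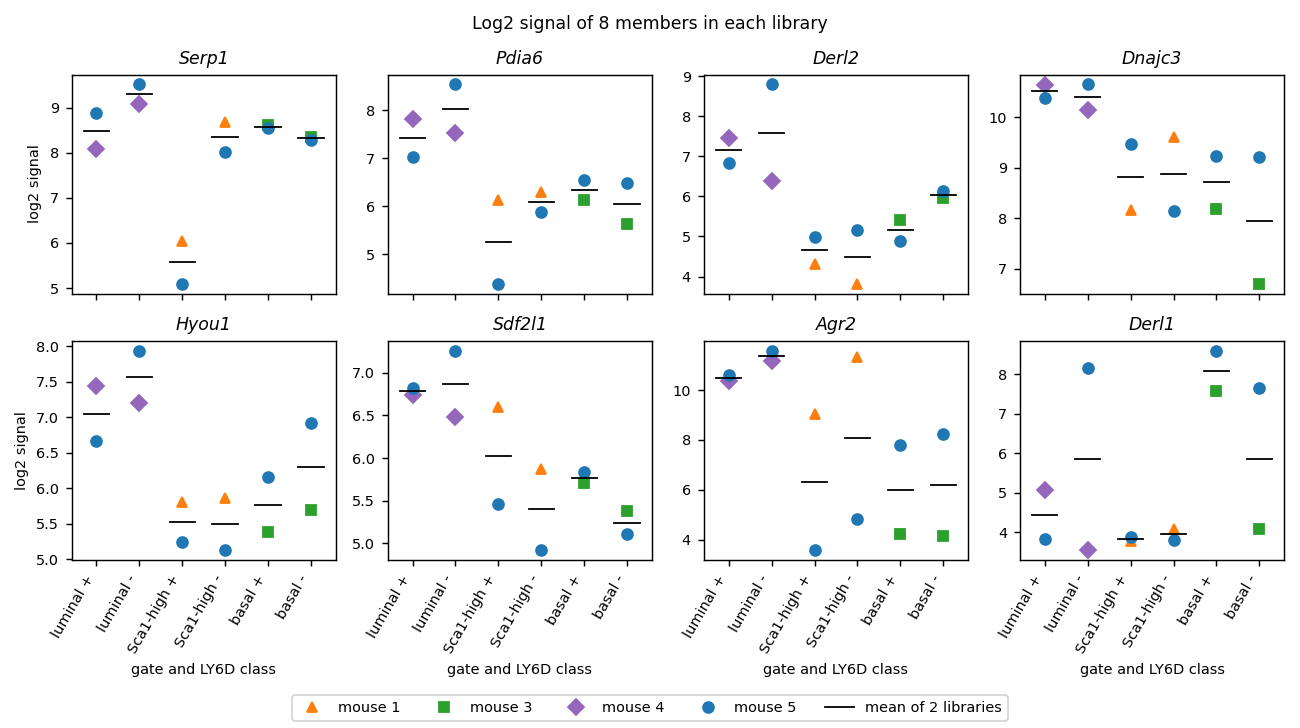
Log2 signal (vertical axes, each with its own range) of 8 genes in the 6 groups of gate and LY6D class. Points are libraries, with the mouse given by shape and colour, and lines are means of 2 libraries. Serp1 is low in Sca1-high LY6D+ cells (5.10 and 6.04) and at 8.01 or more elsewhere.

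Among the genes of translocation, Serp1 was the member that passed. It encodes RAMP4, a small protein that binds SEC61 and steadies new membrane proteins under stress. Its signals were 8.08 and 8.88 in luminal LY6D+ cells of mice 4 and 5 and 9.07 and 9.51 in LY6D- cells. Sca1-high cells read 6.04 and 5.10 with LY6D (mice 1 and 5) and 8.67 and 8.01 without. Basal cells read 8.61 and 8.54 with LY6D (mice 3 and 5) and 8.35 and 8.28 without. The gate means were thus 8.89 ± 0.60, 6.95 ± 1.67 and 8.44 ± 0.16, and the Sca1-high minus luminal difference was -1.93 ± 0.28 (adjusted p = 0.0484, limma). Both low libraries were LY6D+, and the Sca1-high LY6D- values overlapped the luminal range. Left out in turn, each of 9 of the 12 libraries ended the call, at an adjusted p between 0.0728 and 0.159 and a difference between -2.10 and -1.70. Leaving out either luminal library of mouse 4, or LY6D+ cells from the Sca1-high gate of mouse 1, kept the call. It also held in the fit with a fixed block for mouse, at -2.64 (adjusted p = 0.0237, limma), where 3 more members passed, Agr2, Herpud1 and Sec61a1, and 104 of all genes. Removing both libraries that stood apart, from mouse 5, ended it at -1.59 (adjusted p = 0.239).

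Other translocation genes were spread more narrowly. Sec61a1, the pore of the channel, was -0.58 ± 0.50 in basal and -1.29 ± 0.50 in Sca1-high cells relative to luminal cells, with Sca1-high values of 4.95 and 4.97 in mouse 5 and 6.22 and 6.46 in mouse 1. The block moved the latter difference to -2.59 (adjusted p = 0.0257, limma), which is the difference within mouse 5. Between mouse 1 and mouse 4 it was 0.0128. Sec61b differed by -0.86 ± 0.35 and -0.42 ± 0.35. Ssr1, of the translocon-associated complex, read 8.54, 8.66, 6.42 and 8.87 in luminal, 8.40, 9.16, 8.74 and 9.03 in Sca1-high and 8.95, 8.97, 7.63 and 8.73 in basal cells. It lay on the higher side outside the luminal gate, by 0.45 ± 0.48 in basal and 0.71 ± 0.48 in Sca1-high cells. Without luminal LY6D- cells of mouse 4, the lowest library, the basal difference was -0.16. The mean over both probe sets of Ssr1 turned the Sca1-high difference to -0.44.

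For degradation, 6 of 7 members lay on the lower side in each comparison, with a median of -0.96 for basal cells and one of -1.27 for Sca1-high cells. Derl2, a membrane protein of the export machinery, read 7.46, 6.84, 6.39 and 8.79 in luminal cells, 4.32, 4.99, 3.82 and 5.16 in Sca1-high cells, and 5.42, 4.89, 5.96 and 6.13 in basal cells (LY6D+ before LY6D-, with mouse 5 closing each pair). Luminal libraries lay above all others, with differences of -2.80 ± 0.51 for Sca1-high (adjusted p = 0.114) and -1.77 ± 0.51 for basal cells (adjusted p = 0.254). Without luminal LY6D- mouse 4 both passed in limma, at -3.40 (adjusted p = 0.0122) and -2.37 (adjusted p = 0.0284). The mean over both probe sets of Derl2 gave -1.84 for Sca1-high and -1.05 for basal cells, and leaving out luminal LY6D- mouse 5 gave -2.20 and -1.17. In the fit without luminal LY6D- mouse 4, Derl3 and Manf also passed for basal cells, and 255 of all genes did, against 84 with all libraries. Syvn1, the ubiquitin ligase HRD1, was 7.14 ± 0.52 in luminal, 5.62 ± 0.61 in Sca1-high and 6.08 ± 0.08 in basal cells, with no overlap between luminal cells and either gate. Its partner Sel1l differed by -0.96 ± 0.27 in basal and -0.55 ± 0.27 in Sca1-high cells.

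Herpud1, an early stress-induced scaffold of the ligase, divided the Sca1-high gate by mouse: 7.54 and 7.44 in mouse 1 against 5.15 and 5.33 in mouse 5. Luminal values were 8.53, 7.99, 7.96 and 9.04 and basal values 7.92, 7.56, 6.91 and 7.57, and the Sca1-high difference was -2.02 ± 0.59 (adjusted p = 0.373), or -3.28 with mouse as a fixed block (adjusted p = 0.0465, limma). The block value is the difference within mouse 5. Between mouse 1 and mouse 4 it was -0.76. Derl1, a relative of Derl2, had another pattern. It read 7.58 and 8.60 in basal LY6D+ cells, 4.08 and 7.65 in basal LY6D- cells and 8.16 in luminal LY6D- cells of mouse 5. The other luminal libraries read 5.07, 3.84 and 3.56 and the Sca1-high libraries 3.79, 3.88, 4.09 and 3.81. The basal minus luminal difference was 1.82 ± 1.00 (adjusted p = 0.670) and Sca1-high minus basal -3.09 ± 1.00 (adjusted p = 0.391). The first was 0.67 without luminal LY6D- mouse 4 and 2.97 without luminal LY6D- mouse 5. Derl3 differed by -1.28 ± 0.37 in basal and -1.13 ± 0.37 in Sca1-high cells. Edem1, a mannosidase-like protein that marks failed glycoproteins, read 5.83, 5.37, 4.26 and 6.80 in luminal, 5.13, 6.72, 5.14 and 5.29 in Sca1-high and 5.62, 5.15, 4.35 and 4.80 in basal cells. It differed by -0.59 ± 0.53 in basal (0.0497 without luminal LY6D- mouse 5) and 0.01 ± 0.53 in Sca1-high cells. Its probe sets disagreed, and their mean gave -1.07 for Sca1-high cells.

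**Figure D3:**
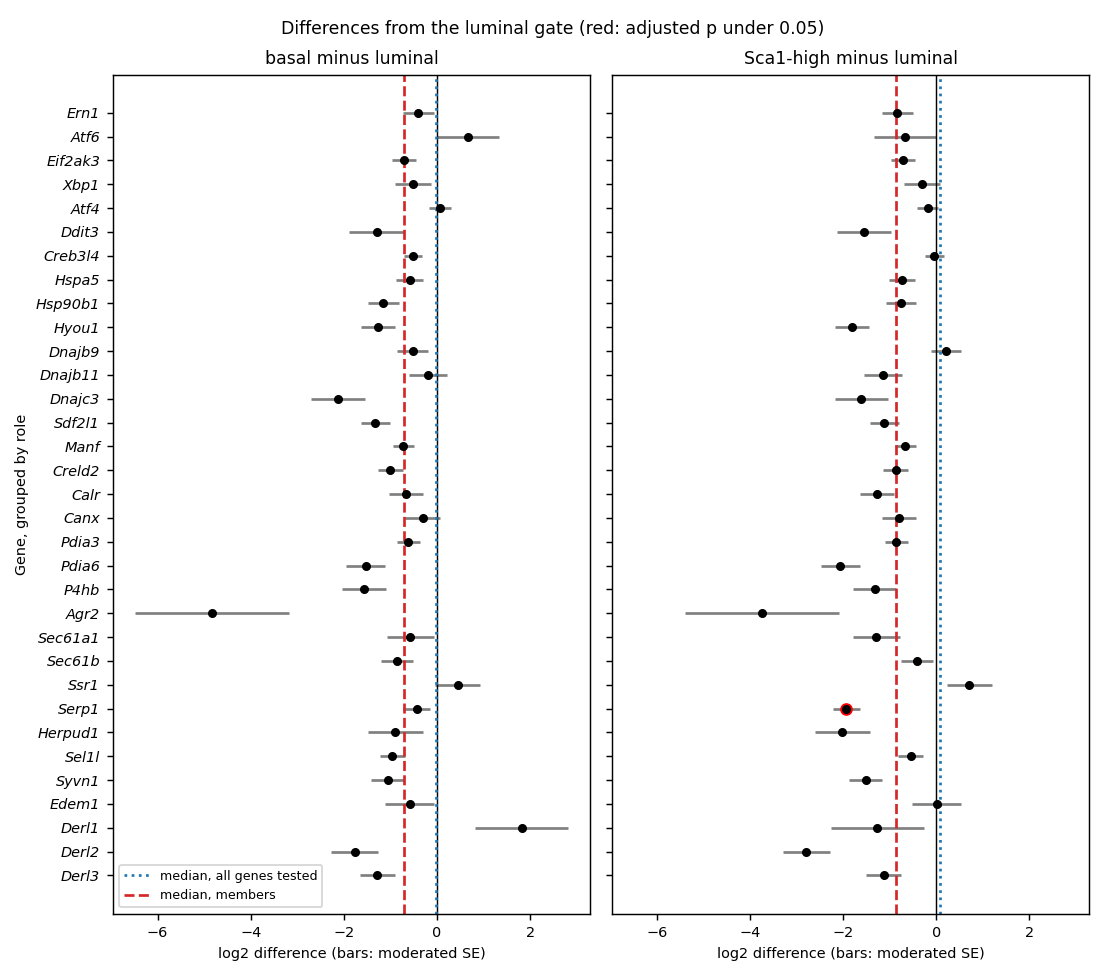
Log2 differences from luminal cells (points, with moderated SE) of 33 genes for basal (left) and Sca1-high cells (right). The dashed line is the members' median (-0.70 and -0.87), the dotted line that of all genes (-0.03 and 0.07), and red marks Serp1, the member with an adjusted p under 0.05.

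Of the 7 sensors and factors, 5 lay on the lower side in basal cells (median -0.51) and 7 in Sca1-high cells (median -0.67). Ern1 (IRE1) read 6.15, 5.87, 5.45 and 6.70 in luminal, 4.62, 5.10, 5.52 and 5.57 in Sca1-high and 5.20, 5.76, 5.30 and 6.32 in basal cells. Eif2ak3 (PERK) read 4.72, 4.84, 4.43 and 5.46 in luminal, 4.12, 4.10, 4.35 and 4.03 in Sca1-high and 4.39, 4.22, 4.35 and 3.68 in basal cells. Gates overlapped for Ern1, while every luminal value of Eif2ak3 lay above all others. Differences of Eif2ak3 were -0.71 ± 0.26 for Sca1-high (adjusted p = 0.506) and -0.70 ± 0.26 for basal cells (adjusted p = 0.403). Atf6 read 7.17, 6.74, 6.24 and 7.31 in luminal, 6.47, 5.63, 4.75 and 7.94 in Sca1-high and 7.999, 8.12, 6.07 and 7.90 in basal cells. It lay on the higher side in basal cells by 0.66 ± 0.66, which was 0.20 without basal LY6D- mouse 5 and 1.12 without basal LY6D- mouse 3. The Sca1-high libraries overlapped both other gates.

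Xbp1, whose mRNA IRE1 splices, read 5.39, 5.27, 5.46 and 6.08 in luminal, 5.83, 4.19, 5.64 and 5.33 in Sca1-high and 5.07, 4.83, 4.51 and 5.73 in basal cells. All gates overlapped, and these values do not separate the spliced form. Atf4, controlled largely at translation, read 10.90, 10.94, 10.32 and 11.16 in luminal, 10.78, 10.37, 10.80 and 10.63 in Sca1-high and 11.21, 11.10, 10.37 and 10.87 in basal cells. It had the narrowest span of the 33 members, with differences of 0.06 ± 0.23 in basal and -0.18 ± 0.23 in Sca1-high cells.

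Ddit3 (CHOP), a target of ATF4 tied to cell death, read 9.03, 7.66, 6.35 and 9.26 in luminal, 7.40, 6.29, 6.42 and 5.96 in Sca1-high and 6.83, 6.61, 6.74 and 6.92 in basal cells. The luminal LY6D- library of mouse 4 lay among those of the other gates. Its differences were -1.30 ± 0.58 in basal and -1.55 ± 0.58 in Sca1-high cells. They were -0.57 and -0.83 without luminal LY6D- mouse 5, and -2.02 and -2.28 without luminal LY6D- mouse 4. Creb3l4, a prostate-enriched factor held in the ER membrane like ATF6, lay near the low end of the scale, at 2.86 to 4.04 with 1 library below the table's lower quartile. It was the sole member whose Sca1-high libraries all lay above the basal ones (3.56 to 3.79 against 2.86 to 3.42). Of all genes 4.77% were higher and 2.26% lower without overlap in that comparison.

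Counted over the list, 11 members did not overlap between basal and luminal libraries and 11 between Sca1-high and luminal libraries, all lower outside the luminal gate, against 3.17% and 2.48% of all genes. Higher without overlap were 0 members in either comparison, against 2.58% and 3.57% of all genes. The basal ones were Agr2, Dnajc3, Derl2, Pdia6, Sdf2l1, Hsp90b1, Syvn1, Herpud1, Eif2ak3, Calr and Pdia3. The Sca1-high ones were Derl2, Pdia6, Herpud1, Hyou1, Dnajc3, Syvn1, Calr, Derl3, Pdia3, Hspa5 and Eif2ak3.

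Differences can be taken within mouse 5, which gave every group, and between the other mice. Mouse 1 gave only Sca1-high, mouse 3 only basal and mouse 4 only luminal libraries. Differences between those mice therefore mix gate with animal, and these cannot be told apart. For basal against luminal cells, 29 of 33 members were lower both within mouse 5 and between mouse 3 and mouse 4, which share no library, against 32.6% of all genes. The medians were -0.90 in mouse 5 and -0.56 in the other mice. Derl1, Atf6 and Ssr1 were higher in both. For Sca1-high against luminal cells, 25 of 33 were lower both within mouse 5 and between mouse 1 and mouse 4 (21.6% of all genes), with medians of -1.24 and -0.52. Derl2 differed by -2.74 and -2.85 in these, while Agr2 differed by -6.88 in mouse 5 and -0.60 between mouse 1 and mouse 4. Members on opposite sides were Sec61a1, Sec61b, Xbp1, Atf4, Dnajb9 and Edem1, which were lower within mouse 5 (-2.59, -1.24, -0.91, -0.55, -0.0573 and -0.0828) and higher between the other mice (0.0128, 0.41, 0.31, 0.18, 0.48 and 0.093), and Creb3l4 the other way round (0.12 and -0.20).

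**Figure D4:**
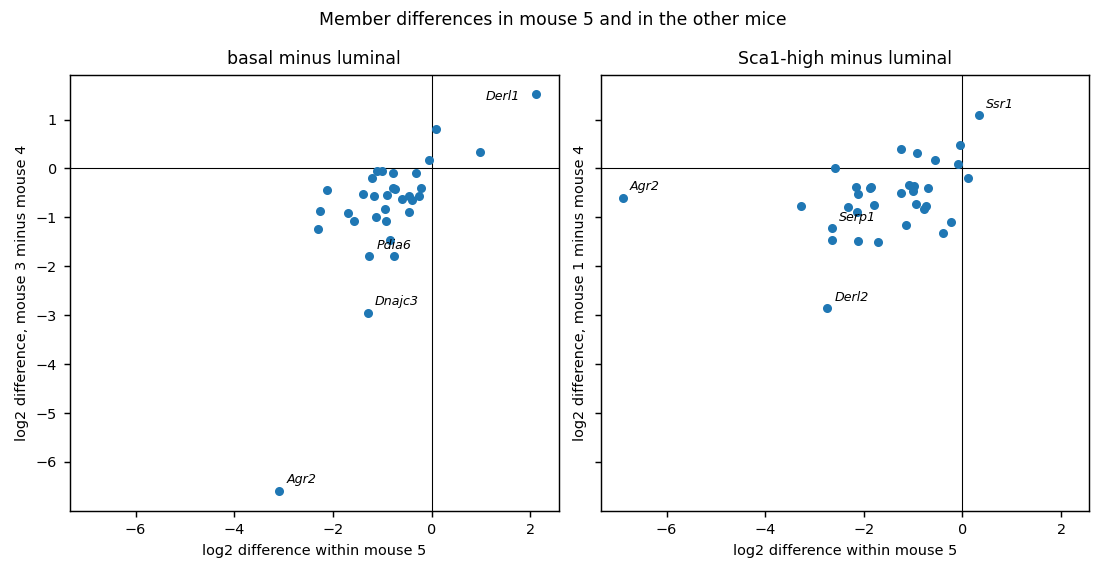
Log2 difference of each of 33 genes within mouse 5 (horizontal axis) and between the other mice (vertical axis), for basal minus luminal (left, mouse 3 minus mouse 4) and Sca1-high minus luminal cells (right, mouse 1 minus mouse 4). Points at lower left are lower outside the luminal gate in both, 29 and 25 of 33 genes.

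Between Sca1-high and basal cells the members were divided, 18 on the lower (35.8% of all genes) and 15 on the higher side in Sca1-high cells, with a median of -0.14 against 0.11 for all genes. With limma 0 members passed (0.00993% of all genes did), and at an unadjusted p under 0.05, 3 were lower and 1 higher (5.32% and 4.5% of all genes). The smallest p was that of Serp1 (-1.49 ± 0.28, adjusted p = 0.193), again through the LY6D+ libraries. With mouse as a fixed block 1 member passed, Agr2, at -3.80 (adjusted p = 0.0355, limma), against a difference of 1.10 ± 1.66 without the block. That fit rests on mouse 5, so its p-value does not measure the spread between mice. Between mouse 1 and mouse 3 the Agr2 difference had the opposite sign, at 5.99. Of all genes 80 passed with the block and 2 without it.

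The series set out to profile epithelial cells by LY6D, and the members did not divide by it beyond the test's threshold. In limma 0 members passed within the luminal, Sca1-high or basal gate or over the gates together, where 0%, 0%, 0.00993% and 0% of all genes passed. At an unadjusted p under 0.05, 3 members were lower and 0 higher in luminal LY6D+ cells (2.08% and 1.48% of all genes), 1 lower and 0 higher in Sca1-high LY6D+ cells (1.5% and 0.914%), and 0 lower and 2 higher in basal LY6D+ cells (1.08% and 1.12%). Over the gates 2 were lower and 0 higher (1.54% and 1.08%). Serp1 in Sca1-high cells had the smallest p of all genes tested there: 5.57 ± 0.66 in LY6D+ against 8.34 ± 0.47 in LY6D- cells (n = 2), a difference of -2.77 ± 0.40 in the same direction in both mice, which did not pass (adjusted p = 0.916, limma). In luminal and basal cells the Serp1 differences were -0.81 ± 0.40 and 0.26 ± 0.40. The Sca1-high LY6D difference minus the basal one was -3.03 ± 0.57, which did not pass (adjusted p = 1, limma). Creld2, at an unadjusted p under 0.05 over the gates (-0.57 ± 0.22), read 6.77 and 6.35 in luminal LY6D+ against 7.34 and 7.97 in LY6D- cells, 6.20 and 5.61 against 6.93 and 6.23 in Sca1-high cells, and 6.20 and 6.06 against 5.75 and 6.43 in basal cells. It was lower with LY6D in luminal and Sca1-high cells of each mouse, and the basal mice differed in sign.

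Manf and Sel1l lay on opposite sides in luminal and basal cells, as did other members, among them Derl1, Dnajb11, Sec61b and Pdia6. Manf read 4.62 and 4.79 in luminal LY6D+ against 5.19 and 6.14 in LY6D- cells, and 4.88 and 5.08 in basal LY6D+ against 3.85 and 4.04 in LY6D- cells. The difference between these LY6D effects was -2.00 ± 0.45 for Manf and -1.85 ± 0.53 for Sel1l, and neither passed (adjusted p = 0.999 for each, limma). Over the list the luminal median was -0.16 (0.02 for all genes), but the mice disagreed. In mouse 5 it was -0.78, with 29 of 33 members lower in LY6D+ cells. In mouse 4 it was 0.30, with 10 of 33 lower. Over all genes the medians were 0.14 in mouse 5 (7895 of 20135 lower) and -0.08 in mouse 4 (11542 lower). The mouse 5 values use its luminal LY6D- library, which held the highest value of 23 of the 33 members. On the lower side were 20 members in the luminal gate (47.9% of all genes), 22 in the Sca1-high gate (54.7%), 10 in the basal gate (46.6%) and 14 over the gates (50.1%). The median was -0.11 for Sca1-high cells and 0.28 for basal cells (-0.04 and 0.02 for all genes).

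Of 169 other genes of the secretory pathway tested, 1 passed for basal against luminal cells (0.417% of all genes did). For Sca1-high against luminal cells 0 passed (0.139%). At an unadjusted p under 0.05, 26 were lower and 12 higher in basal cells (4.58% and 4.86% of all genes). In Sca1-high cells 42 were lower and 1 higher (4.38% and 4.03%). The gene that passed was Dnajc10 (ERdj5), the reductase that opens disulfides before degradation. The luminal libraries read 9.81, 9.15, 8.80 and 9.71. Basal values were 5.43, 6.71, 5.45 and 6.92, and Sca1-high values 6.08, 6.08, 7.32 and 5.26. The luminal libraries lay above all others, and Dnajc10 fell in basal cells by 3.24 on the log2 scale (SE 0.52, adjusted p = 0.0409, limma). That call ended with a fixed block for mouse (-2.61, adjusted p = 0.121), and with any of 9 single libraries left out (adjusted p between 0.053 and 0.129). It also ended with centred arrays (adjusted p = 0.0838), without 3 libraries of mouse 5, both basal ones and luminal LY6D- (adjusted p = 0.213), and without luminal LY6D- and Sca1-high LY6D+ cells of mouse 5 (adjusted p = 0.137). Leaving out either LY6D- library of the Sca1-high gate, or luminal LY6D- cells of mouse 4, kept it.

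Across the lists, 110 of the 169 genes lay on the lower side in basal cells (54.2% of all genes did) and 126 in Sca1-high cells (40.2%), with medians of -0.21 and -0.46. Glycan processing and oligosaccharyltransferase genes were on the lower side for 20 of 23 in basal (median -0.43) and 18 of 23 in Sca1-high cells (-0.63). For signal recognition, translocon and signal peptidase genes the counts were 16 and 20 of 23 (-0.42 and -0.86), and for transport to the Golgi 22 and 29 of 33 (-0.30 and -0.58). Other folding enzymes gave 21 and 16 of 28 (-0.44 and -0.25), other degradation genes 11 and 15 of 21 (-0.06 and -0.67), and other regulators of the response 11 and 12 of 17 (-0.14 and -0.11). Targets of ATF4 and CHOP ran the other way in basal cells, where 15 of 24 lay on the higher side (median 0.46), with 7 higher and 1 lower at an unadjusted p under 0.05 (4.86% and 4.58% of all genes), and 16 of 24 on the lower side in Sca1-high cells (-0.12), with 4 lower and 1 higher at an unadjusted p under 0.05 (4.38% and 4.03%). None of these targets passed in limma, where the smallest adjusted p was 0.0725 for basal and 0.194 for Sca1-high cells.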

How the data were processed

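Sorted cell RNA was purified on columns, amplified by the NuGEN Ovation V2 kit, labelled with biotin and measured on arrays, per the labels. The authors deposited log2 signals per probe set, made with RMA and oligo per the submitters' processing notes, which give no version or parameters. Values lay between 0.695 and 14.3 with array medians between 3.76 and 3.99, and were used unchanged. Of 41345 probe sets, 23521 had a single symbol. Where a gene had several, the brightest was kept. Genes with at least 2 arrays above the lower quartile of the table (2.98) were tested with limma 3.58.1 in R 4.3.3 on 6 group means (6 residual degrees of freedom), with Benjamini-Hochberg adjustment over 20135 genes. The fit was tested on simulated data. Those values were drawn separately for each library without a mouse effect, so that check does not cover libraries from the same animal. Members and lists were chosen with earlier results of these data known. Values per library are given, by rule, for members past the threshold, for the 4 with the largest rise and the 4 with the largest fall in each gate comparison and in LY6D over gates, and for the sensors and their factors. Of the other pathway lists, genes past the threshold are named. The mouse number marks the same animal, so it pairs libraries. Residuals of the LY6D pairs correlated at 0.0220, 0.149 and 0.407 in the luminal, Sca1-high and basal gates. Mouse as a block, filters, centring, probe choice and left-out libraries were alternatives. The number of arrays limits the precision.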

Additional observations from a re-analysis of the deposited data

Results flagged for a closer look

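Of 99 combinations of a member and a gate of 4 libraries, 4 had a library far from the other 3 by Dixon's criterion (0.829 of the range), and chance alone flags about 5% of groups. Atf6 in basal cells was lowest in LY6D- cells of mouse 3, at 6.07, with the other libraries at 7.90 to 8.12. Hspa5 in luminal cells was highest in LY6D- cells of mouse 5, at 9.76 (9.765 before rounding), with the next at 8.72. Ssr1 in luminal cells was lowest in LY6D- cells of mouse 4, at 6.42, with the next at 8.54. Edem1 in Sca1-high cells was highest in LY6D+ cells of mouse 5, at 6.72, with the next at 5.29.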

How the results depend on the processing

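The signs of 26 lower members held under every alternative they were tested in for basal against luminal cells (22, but 21 for Creb3l4, which the stricter filter removed), and of 26 for Sca1-high against luminal cells. Of 792 checks on 36 named differences 735 kept their sign and side of the threshold. Many of these checks could not move a difference. Filters, the intensity trend, a fit of only the groups compared and leaving out a library of an uncompared gate change its p-value alone. The same holds for the signs counted above. Apart from the Serp1 and Dnajc10 calls, the named differences did not pass with all libraries, so they had no call to lose. With mouse as a fixed block (a replicate block, so that gate differences rest on mouse 5), 1, 4 and 1 members passed for basal against luminal, Sca1-high against luminal and Sca1-high against basal cells, and the Sca1-high minus luminal median was -1.24. The p-values of that fit do not measure the spread between mice. For Sca1-high against luminal cells 0 members passed with no filter, centred arrays, an intensity trend, only the groups compared, without 3 libraries of mouse 5 (luminal LY6D-, basal LY6D+ and basal LY6D-), or without luminal LY6D- and Sca1-high LY6D+ cells of mouse 5, an alternative chosen after seeing the data. Without either of these sets the luminal LY6D median was 0.30. Leaving out single libraries gave 0 to 3 members for basal and for Sca1-high against luminal cells, and luminal LY6D medians of -0.75 to 0.30. Signs turned under the fixed block for Agr2 (-3.80) and Dnajc3 (-0.41) between Sca1-high and basal cells, Atf4 between basal and luminal cells (-0.0615), and Dnajb9 (-0.0573) and Edem1 (-0.0828) between Sca1-high and luminal cells. Edem1 also turned with a random block (-0.00808), centred arrays (-0.0788) and mean probe sets (-1.07), Ssr1 with mean probe sets (-0.44), and Agr2 in LY6D over gates without both doubted libraries (0.0428). With single libraries left out, Agr2 ranged from -2.02 to 0.15 in LY6D over gates and from -0.53 to 2.72 between Sca1-high and basal cells, Dnajc3 there from -0.11 to 1.14, and Ddit3 in LY6D over gates from -0.12 to 0.85. Against luminal cells, Atf4 ranged from -0.15 to 0.27 and Ssr1 from -0.16 to 1.06 in basal cells, and Dnajb9 from -0.0494 to 0.47 and Edem1 from -0.63 to 0.64 in Sca1-high cells. The cause was not tested. Over all genes 84 passed for basal against luminal cells (31 with centred arrays, 100 with the block, 0 without the 3 libraries, 15 to 255 without single libraries) and 28 for Sca1-high against luminal cells (17, 104, 0 and 13 to 165).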
